A study of Mus musculus with 6 samples.

Results

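YAP and TAZ, encoded by Yap1 and Wwtr1, are transcriptional coactivators at the end of the Hippo pathway. The 10 genes described here are both coactivators, 3 of the TEAD factors that carry them to DNA (Tead1, Tead3 and Tead4), and 5 genes known as their targets (Ccn1, Ccn2, Ankrd1, Amotl2 and Ajuba). They were taken by name, and all 10 were among the 17072 of 56941 gene IDs with enough counts to be tested. In the Hippo pathway, the MST kinases activate the LATS kinases, which phosphorylate YAP and TAZ and keep them out of the nucleus. When that brake is released, by stretch, a stiff matrix or loss of cell contact, YAP and TAZ enter the nucleus, bind TEAD factors and switch on genes of adhesion, matrix and growth. In the lung, the pair is known for its part in the growth of vessels and in the alveolar epithelium, where it favours flat alveolar type 1 cells.

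The libraries hold RNA of lung cells of mouse pups, taken on postnatal day 7 and pulled out of a cell suspension with beads against CD31, the endothelial adhesion molecule encoded by Pecam1. A group of 3 libraries came from pups kept in room air (21% oxygen), and a group of 3 from pups kept in hyperoxia (75% oxygen) since postnatal day 0. The labels give no genetic change for either group, and the sources used here do not give strain, sex or how many animals went into a library. Because nothing says that replicates were separate animals, the spread among the libraries of a group may be technical. Each p-value sets the difference between the groups against that spread only. Total counts ran from 39379793 to 42343192 per library. Of 8 endothelial markers, all were detected in every library, with Pecam1 at 2783 ± 449.8 CPM (counts after scaling to equal library totals) in room air and 2341 ± 369.2 in hyperoxia (SD, n = 3). Genes of alveolar type 2 cells were abundant as well, with Sftpc at 7650 to 12970 CPM, above Cdh5, the highest endothelial marker, at 2690 to 5129 CPM. The means of the summed alveolar type 2 markers were 14864 CPM in room air and 14701 in hyperoxia. Those of the endothelial markers were 13964 and 11375 CPM. Fewer cells of a type and less RNA per cell cannot be told apart in such bulk samples.

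Among the 10 genes, 4 were higher in hyperoxia at an adjusted p below 0.05, and 0 were lower. They were the coactivator gene Wwtr1, the TEAD genes Tead1 and Tead3, and the target Ccn1. Over all genes tested, 11.2% were called, 6.77% as higher and 4.41% as lower. Yap1, Tead4, Ccn2, Ankrd1, Amotl2 and Ajuba were not called. Their log2 fold changes were positive for 3 and negative for 3. The median log2 fold change of the 10 genes was 0.35, against -0.0093 over all genes tested. Of the 10, 5 had groups that did not overlap, the 4 called genes and Ankrd1, where 30.9% of all genes tested had such groups. At an unadjusted p below 0.05 stood 5 genes, of which 1, Ankrd1, was lower. Over all 17072 genes tested, 4298 stood below that p, 1993 of them lower. DESeq2 and limma-voom each called 4 of the 10 as higher and 0 as lower. The count of higher genes was 1 without room air 1, 2 without room air 2 and 2 without hyperoxia 2, and Tead1 was called in each of these. Calls over all genes tested fell as well, from 1909 with all 6 libraries to 1313, 1057 and 1319 in these fits, in that order.

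**Figure D1:**
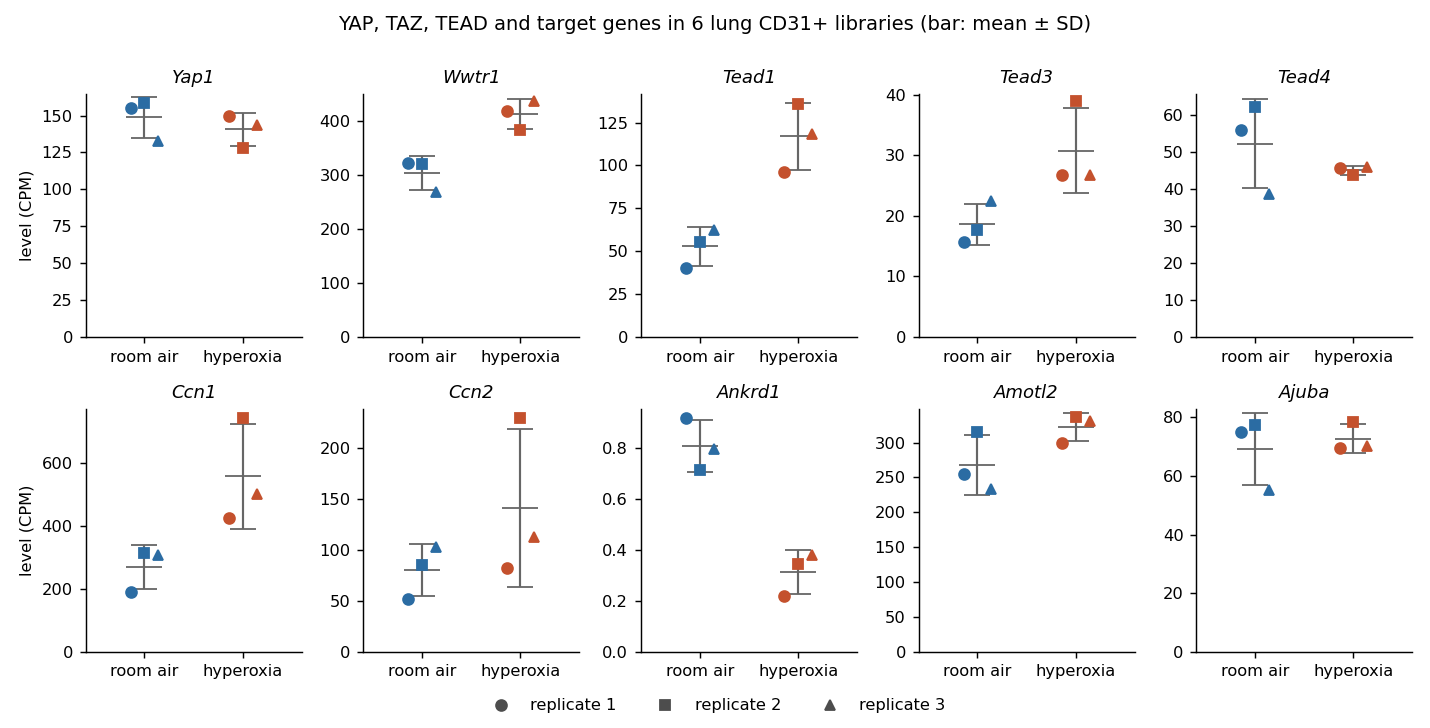
Level in CPM (vertical axes, each from 0) of the 10 genes in the 3 room air and the 3 hyperoxia libraries. Points are libraries, shaped by replicate number, and bars give mean ± SD. Tead1 sits between 96.4 and 135.9 CPM in hyperoxia, above the 40.4 to 62.4 of room air, while the groups overlap for Yap1.

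Of the coactivator genes, Wwtr1 rose and Yap1 was not called. Wwtr1 (ENSMUSG00000027803), the gene for TAZ, stood at 323.5, 321.2 and 268.5 CPM in room air and at 419.5, 383.7 and 438.4 CPM in hyperoxia. All hyperoxia libraries were above all room air libraries. The mean rose from 304.4 ± 31.1 to 413.8 ± 27.8 CPM (SD, n = 3), 1.36-fold, with a log2 fold change of 0.44 (SE 0.12, adjusted p = 0.0439). That call was close to the threshold: the adjusted p was 0.0564 to 0.18 when any 1 of the 6 libraries was left out. It was 0.0513 with DESeq2 size factors and 0.224 with the level of Y-linked genes as a covariate.

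Yap1 (ENSMUSG00000053110) stood at 154.9, 158.6 and 133.0 CPM in room air and at 150.0, 128.0 and 143.8 CPM in hyperoxia. The groups overlapped, and the lowest of the 6 libraries was hyperoxia 2. The log2 fold change was -0.08, with a 95% interval of -0.34 to 0.17 (adjusted p = 0.707). Per kilobase of exon, the Wwtr1 level was 4.04, 3.92 and 3.91 times the Yap1 level in room air, and 5.42, 5.81 and 5.9 times in hyperoxia. This ratio was higher in every hyperoxia library, with means of 3.96 ± 0.0736 and 5.71 ± 0.257 (n = 3). The exact two-sided permutation p was 0.1, the smallest that 3 against 3 can give, and 0.12 adjusted over 6 such measures, which include the TEAD shares given below.

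TEAD factors bind DNA but need YAP, TAZ or another partner to activate a gene. Tead1 (ENSMUSG00000055320) had the largest log2 fold change of the 4 called genes. It stood at 40.4, 55.5 and 62.4 CPM in room air and at 96.4, 135.9 and 118.3 CPM in hyperoxia. The groups were far apart, and room air 1 was lowest and hyperoxia 2 highest. The mean rose from 52.8 ± 11.3 to 116.8 ± 19.8 CPM (SD, n = 3), 2.21-fold, with a log2 fold change of 1.15 (SE 0.17, adjusted p = 0.0023). Tead1 was called under all 15 alternatives that gave it a value at this threshold, with a log2 fold change of 0.98 to 1.35.

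Tead3 (ENSMUSG00000002249), a paralog of Tead1 that binds the same DNA motif, was called as well. It stood at 15.7, 17.7 and 22.4 CPM in room air and at 26.7, 38.9 and 26.7 CPM in hyperoxia. All hyperoxia libraries were above all room air libraries, with hyperoxia 2 the highest. The mean rose from 18.6 ± 3.46 to 30.7 ± 7.06 CPM (SD, n = 3), a log2 fold change of 0.73 (SE 0.19, adjusted p = 0.0308). The adjusted p was 0.107 without room air 1, 0.113 without room air 2, 0.0854 without hyperoxia 2 and 0.0515 with scaling by library size only.

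Tead4 (ENSMUSG00000030353), a further family member, was not called. It stood at 55.9, 62 and 38.7 CPM in room air and at 45.6, 43.7 and 45.8 CPM in hyperoxia. The hyperoxia libraries lay within the range of the room air ones. The log2 fold change was -0.21, with a 95% interval of -0.56 to 0.13 (adjusted p = 0.447).

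Tead2 is the remaining TEAD gene and moved the other way. It stood at 137.6, 143.1 and 114.1 CPM in room air and at 88.6, 65.7 and 78.5 CPM in hyperoxia. All hyperoxia libraries were below all room air libraries. The mean fell from 131.6 ± 15.4 to 77.6 ± 11.5 CPM (SD, n = 3), 1.69-fold lower, with a log2 fold change of -0.76 (SE 0.14, adjusted p = 0.00509).

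The make-up of the TEAD family was compared per kilobase of exon, so that levels of different genes could be set side by side. Tead2 made up 58%, 55.5% and 56% of the summed TEAD level in room air and 43.8%, 32.9% and 39.2% in hyperoxia. Tead1 made up 6%, 7.6% and 10.8% in room air and 16.8%, 24% and 20.8% in hyperoxia. The groups did not overlap for either gene, and the mean share of Tead1 was 12.4 percentage points higher in hyperoxia. The difference for Tead2 was -17.8 percentage points. Tead3 made up 4.7%, 4.88% and 7.84% in room air and 9.39%, 13.9% and 9.51% in hyperoxia. Tead4 made up 29.6 ± 3.68% (SD, n = 3) in room air and 29.9 ± 0.648% in hyperoxia, and its groups overlapped. The exact two-sided permutation p was 0.1 for Tead1, Tead2 and Tead3, the smallest that 3 against 3 allows, and 1 for Tead4. The summed level was 49.6, 53.8 and 42.5 in room air and 42.3, 41.7 and 41.8 in hyperoxia, in RPKM, which is CPM divided by kilobases of exon. Every hyperoxia library was below every room air library in this sum, but hyperoxia 1 (42.3) was close to room air 3 (42.5). The difference of the means was -6.71 RPKM, with an exact two-sided permutation p of 0.1. This fall depends on the division by length, as Tead1 has 13570 exonic bases and Tead2 4788. Summed in CPM without that division, the TEAD levels of the groups overlapped and the mean did not fall. Taken as shares of counts without division by length, the Tead1 difference was 22.3 percentage points and the Tead4 difference -3.62.

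**Figure D2:**
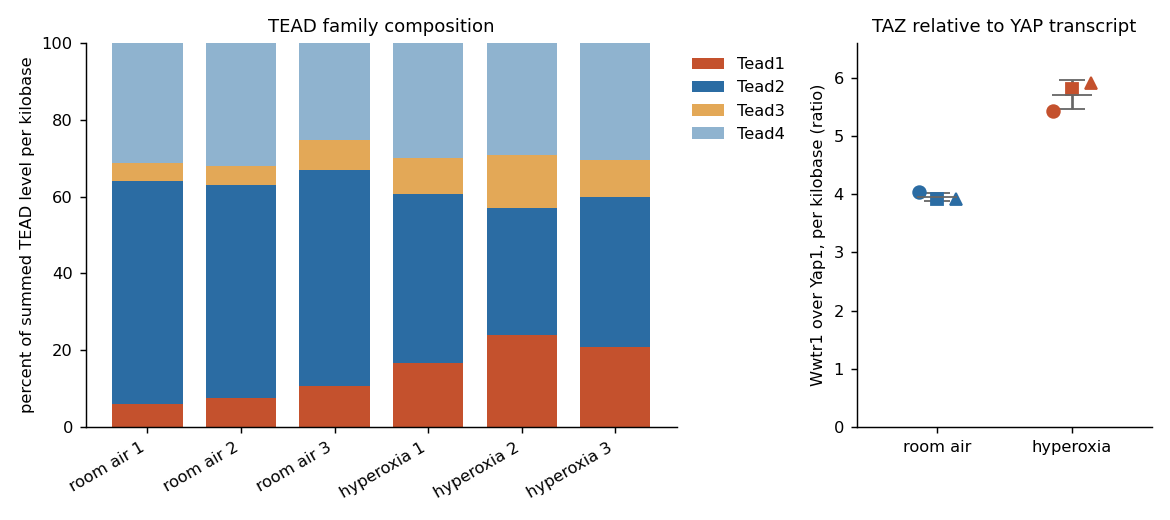
Left, share of each TEAD gene in the summed TEAD level per kilobase of exon (percent, vertical axis) in each library. Right, ratio of the Wwtr1 to the Yap1 level per kilobase, with points for libraries (circle, square and triangle for replicates 1, 2 and 3) and bars for mean ± SD. The Tead1 share runs from 6% to 10.8% in room air and from 16.8% to 24% in hyperoxia, and the ratio from 3.91 to 4.04 and from 5.42 to 5.9.

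TEAD factors recognise a short core motif, GGAATG. The 250 bases before the start were searched on both strands, so CATTCC marks a motif that reads on the other strand. RefSeq promoters of the build GRCm38.p6 were given for 7 of the 10 genes, and those of Tead1, Tead4 and Ccn2 were not used here. All 7 genes had at least 1 match, in 9 of their 10 promoters (90%). Over the whole table, 3880 of 27025 genes (14.4%) and 12.6% of 32851 promoters had one. Among the other known targets described below, 2 of the 10 genes with a promoter given (20%) had one. The promoters of 4 targets are printed from 5′ to 3′ on the gene's strand, the motif in capitals, because Ccn1 was called as higher while Ankrd1, Amotl2 and Ajuba were not, and all 4 hold the motif.
Ccn1: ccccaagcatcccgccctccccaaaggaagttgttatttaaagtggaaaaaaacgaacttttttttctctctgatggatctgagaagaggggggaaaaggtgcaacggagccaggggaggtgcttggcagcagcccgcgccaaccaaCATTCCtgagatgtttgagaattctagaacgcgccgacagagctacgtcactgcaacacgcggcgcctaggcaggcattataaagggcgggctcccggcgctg
Ankrd1: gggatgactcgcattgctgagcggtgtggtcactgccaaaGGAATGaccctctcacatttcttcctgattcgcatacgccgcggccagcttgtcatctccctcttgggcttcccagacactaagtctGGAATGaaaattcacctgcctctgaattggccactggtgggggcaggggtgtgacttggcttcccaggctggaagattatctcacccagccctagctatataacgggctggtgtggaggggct
Amotl2: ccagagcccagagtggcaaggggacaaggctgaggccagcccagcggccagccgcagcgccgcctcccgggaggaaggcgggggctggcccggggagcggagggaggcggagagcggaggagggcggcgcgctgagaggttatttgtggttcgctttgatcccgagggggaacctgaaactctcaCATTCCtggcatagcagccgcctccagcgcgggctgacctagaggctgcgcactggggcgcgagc
Ajuba: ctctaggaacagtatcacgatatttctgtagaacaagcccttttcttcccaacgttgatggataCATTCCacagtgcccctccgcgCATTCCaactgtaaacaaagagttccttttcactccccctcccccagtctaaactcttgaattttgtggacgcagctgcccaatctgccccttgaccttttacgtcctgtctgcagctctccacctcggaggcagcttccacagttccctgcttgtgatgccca
These stretches lie at chr3:145649986-145650235 on the minus strand for Ccn1, chr19:36119845-36120094 on the minus strand for Ankrd1, chr9:102717554-102717803 on the plus strand for Amotl2 and chr14:54577662-54577911 on the minus strand for Ajuba. In Ccn1 the motif begins 103 bases before the start, and in Amotl2 it begins 65 bases before it. Ankrd1 has a motif at 210 and at 123 bases, and Ajuba at 186 and at 164. The regulator genes hold it too, Yap1 at 141 bases, the Wwtr1 promoters at 136 or 170, and the Tead3 promoters at 182, 123 or 114. The Wwtr1 windows overlap, and the match at 136 and at 170 is the same motif, counted in both promoters. A match describes letters in a window and is not evidence of binding.

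Ccn1 and Ccn2 encode secreted matricellular proteins that act on integrins and are the most widely used readouts of YAP and TAZ. Ccn1 (ENSMUSG00000028195) stood at 189.9, 313.5 and 308.2 CPM in room air and at 426.7, 745.2 and 503.9 CPM in hyperoxia. All hyperoxia libraries were above all room air libraries, with room air 1 lowest and hyperoxia 2 highest. The mean rose from 270.5 ± 69.9 to 558.6 ± 166.2 CPM (SD, n = 3), 2.06-fold, with a log2 fold change of 1.05 (SE 0.23, adjusted p = 0.0163). Without room air 1 the log2 fold change was 0.84 (adjusted p = 0.0555), and it was 0.87 when hyperoxia 2 and room air 3 were both omitted (adjusted p = 0.0678).

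Ccn2 (ENSMUSG00000019997) stood at 52.1, 84.7 and 102.5 CPM in room air and at 81.9, 229.0 and 112.2 CPM in hyperoxia. A single library, hyperoxia 2, was far above the rest, and hyperoxia 1 was below 2 of the 3 room air libraries. The log2 fold change was 0.82, with a 95% interval of -0.06 to 1.71 (adjusted p = 0.232), and 0.29 without hyperoxia 2 (adjusted p = 0.603). With the level of Y-linked genes as a covariate it was 1.49 (adjusted p = 0.0215). In the GENCODE M21 annotation, 23.2% of the exonic bases of Ccn2 overlap Gm15270 on the other strand, so its counts are uncertain where strand was not used.

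Ankrd1 (ENSMUSG00000024803) encodes an ankyrin repeat protein induced by mechanical stress in muscle and endothelium. It was close to the lower limit of detection, with 38, 28 and 33 counts in room air and 9, 14 and 15 in hyperoxia. That is 0.919, 0.714 and 0.796 CPM against 0.218, 0.346 and 0.381 CPM, so every hyperoxia library was below every room air library. The log2 fold change was -1.36 (SE 0.59), with a 95% interval of -2.66 to -0.05. The adjusted p was 0.181 and the unadjusted p 0.0426, so its direction was opposite to that of Ccn1 but it was not called.

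Amotl2 and Ajuba feed back on the pathway: AMOTL2 is a junction scaffold that binds YAP, and AJUBA is a LIM protein that restrains LATS. Amotl2 (ENSMUSG00000032531) stood at 255.5, 315.8 and 233.2 CPM in room air and at 299.9, 336.9 and 330.3 CPM in hyperoxia. The groups overlapped, and the log2 fold change was 0.27, with a 95% interval of -0.03 to 0.56 (adjusted p = 0.255). Ajuba (ENSMUSG00000022178) stood at 75.1, 77.4 and 55.1 CPM in room air and at 69.6, 78.5 and 70.1 CPM in hyperoxia. Its groups overlapped too, and the log2 fold change was 0.07, with a 95% interval of -0.23 to 0.37 (adjusted p = 0.795).

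Ranked by level per kilobase of exon, the 10 genes stood in the same order in both groups. Ccn1 was highest in room air, at 134.0 ± 34.6 RPKM, followed by Wwtr1 at 63.7 ± 6.5 RPKM and Amotl2 at 42.6 ± 6.8 RPKM. Ccn2 (27.9 ± 8.92 RPKM), Ajuba (19 ± 3.36 RPKM), Yap1 (16.1 ± 1.5 RPKM) and Tead4 (14.5 ± 3.35 RPKM) came next, each overlapping its neighbour in this order. Tead1 (3.89 ± 0.832 RPKM) and Tead3 (2.77 ± 0.516 RPKM) overlapped each other, and Ankrd1 was lowest at 0.281 ± 0.0358 RPKM. In hyperoxia the level of Ccn1 was 276.7 ± 82.3 RPKM, that of Tead1 8.61 ± 1.46 RPKM and that of Tead3 4.58 ± 1.05 RPKM. There, Amotl2 (51.3 ± 3.14 RPKM) and Ccn2 (49.3 ± 27.2 RPKM) were the sole neighbours in the order whose libraries overlapped.

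Across libraries the 10 genes did not vary as a single block. Hyperoxia 2 was the highest of the 6 libraries for 6 genes (Tead1, Tead3, Ccn1, Ccn2, Amotl2 and Ajuba) and the lowest for Yap1. It also had the fewest gene IDs with any count, 19471 against 21784 to 23989 in the other libraries, at a similar total count. Room air 1 was the lowest for Tead1, Tead3, Ccn1 and Ccn2, and room air 3 for Wwtr1, Tead4, Amotl2 and Ajuba. The genes most like Tead1 in log2 CPM over the 6 libraries, among 10843 compared, were Adam9 (Pearson r = 0.997), Itih4 (0.997) and Pitpnm3 (0.996). Those most like Ccn1 were Mpp5 (0.999), Popdc3 (0.995) and Dbt (0.995). The 6 libraries share the difference between the groups, so these values only describe which profiles lie closest.

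The other paralogs and cofactors of the 10 genes were mostly not called. Of 8 paralogs, Tead2 included, 0 were higher and 2 were lower (6.77% and 4.41% of all genes tested), with a median log2 fold change of -0.13. The second was Amot, a junction scaffold like Amotl2, which fell from 32.2 ± 5.5 to 20.8 ± 2.91 CPM, with a log2 fold change of -0.63 (SE 0.16, adjusted p = 0.028). Its adjusted p was 0.0515 to 0.12 without room air 1, room air 2, hyperoxia 1 or hyperoxia 2. Ccn3, Ccn4, Ccn5, Amotl1, Limd1 and Wtip were not called, and their log2 fold changes ran from -0.17 to 0.71. At an unadjusted p below 0.05 stood 3 of the 8, and 4298 of all 17072 genes tested. The VGLL proteins compete with YAP and TAZ for TEAD factors. Vgll4 (167.7 ± 25.3 CPM in room air, 147.0 ± 8.29 in hyperoxia, adjusted p = 0.396) and Vgll3 (2.47 ± 0.929 and 2.88 ± 0.285 CPM, adjusted p = 0.737) were not called. Vgll1 had 0 counts in every library and Vgll2 had 5 counts in room air 3 alone, so neither was tested, and a count of 0 allows up to 3.

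Upstream of YAP and TAZ, 18 kinases, adaptors and membrane proteins were examined. Of these, 4 were higher in hyperoxia, 2 were lower and 12 were not called, with a median log2 fold change of -0.12. The shares over all genes tested were 6.77% higher and 4.41% lower. Log2 fold changes were negative for 12 of the 18, and 10 stood at an unadjusted p below 0.05, of which 6 were lower. Of all 17072 genes tested, 4298 stood below that p, 1993 of them lower. Wwc1 encodes KIBRA, an adaptor that activates LATS. It stood at 52.6, 65.2 and 77.8 CPM in room air and at 129.6, 158.4 and 135.7 CPM in hyperoxia, with no overlap between the groups. Its log2 fold change was 1.11 (SE 0.15, adjusted p = 0.00123). Wwc2, its paralog, rose from 183.7 ± 18.3 to 265.6 ± 19.6 CPM, with a log2 fold change of 0.53 (SE 0.12, adjusted p = 0.0168). Ptpn14, a phosphatase that binds YAP in the cytoplasm, rose from 95.3 ± 14.6 to 138.8 ± 17.7 CPM, with a log2 fold change of 0.54 (SE 0.14, adjusted p = 0.0308). Frmd6, a FERM protein of the apical membrane, rose from 72.9 ± 5.21 to 94 ± 6.45 CPM, with a log2 fold change of 0.37 (SE 0.10, adjusted p = 0.0482). That call was lost in 12 of 15 alternatives, among them each library left out in turn (adjusted p = 0.0603 to 0.183), DESeq2 size factors (0.0564), library size only (0.0576) and limma-voom (0.0525). When 1 library was left out, the adjusted p ran from 0.0296 to 0.0762 for Wwc2 and from 0.0353 to 0.0919 for Ptpn14.

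The upstream genes that fell were Fat4 and Lats2. Fat4, an atypical cadherin, fell from 75.1 ± 18.5 to 47.8 ± 5.61 CPM, with a log2 fold change of -0.65 (SE 0.17, adjusted p = 0.0298). Lats2, a kinase that phosphorylates YAP and TAZ and is itself a known target of theirs, fell from 84.4 ± 8.17 to 60.4 ± 3.99 CPM, with a log2 fold change of -0.48 (SE 0.11, adjusted p = 0.0184). In GENCODE M21, 42.4% of the exonic bases of Lats2 overlap Gm49361 on the same strand, so its counts are uncertain. When 1 library was left out, the adjusted p ran from 0.0233 to 0.0905 for Fat4 and from 0.0218 to 0.0716 for Lats2. Lats1, at a log2 fold change of 0.19 (adjusted p = 0.43), and the MST kinase genes Stk3 (-0.33, adjusted p = 0.0645) and Stk4 (-0.36, adjusted p = 0.0819) were not called. The 6 upstream calls became 1 to 5 when 1 library was left out: 1 without hyperoxia 2, 3 without room air 1, room air 2, hyperoxia 1 or hyperoxia 3, and 5 without room air 3. Wwc1 was called in all of these. Calls over all genes tested fell too, from 1909 with all 6 libraries to between 1057 and 1844.

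A further 16 genes of the widely used YAP and TAZ target signature were taken as a list. Of these, 8 were higher in hyperoxia, 0 were lower and 8 were not called, and their median log2 fold change was 0.54. Of all genes tested, 6.77% were called higher and 4.41% lower, so a count of 0 lower in 16 genes tells little. Ptpn14 and Lats2 belong to this signature too but were counted with the upstream genes, Ptpn14 as higher and Lats2 as lower, so the count of 0 lower leaves out a target that fell. Positive log2 fold changes were seen for 15 of the 16, the exception being Foxf2 at -0.35 (adjusted p = 0.338). At an unadjusted p below 0.05 stood 11, of which 0 were lower, where 4298 of all 17072 genes did, 1993 of them lower. The tests of DESeq2 and limma-voom each called 8 and 0 lower. The count of 8 was 6 to 8 when 1 library was left out. This signature was compiled outside the study, and many of its members respond to other pathways as well.

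Nt5e, the gene for CD73, which makes adenosine at the cell surface, had the largest difference of the list. It stood at 8.52, 12.4 and 20.8 CPM in room air and at 45.8, 91.2 and 55.9 CPM in hyperoxia. Every hyperoxia library was above every room air library, 4.63-fold by the fit (log2 fold change 2.21, SE 0.33, adjusted p = 0.00274). Its adjusted p was 0.0767 when genes with low counts were not filtered out. Fjx1, a secreted regulator related to planar polarity, rose from 9.94 ± 0.837 to 26.8 ± 8.57 CPM, with a log2 fold change of 1.43 (SE 0.21, adjusted p = 0.00217). Myof, which encodes the membrane repair protein myoferlin, rose from 45.7 ± 7.24 to 112.0 ± 22.1 CPM, with a log2 fold change of 1.29 (SE 0.16, adjusted p = 0.000845). F3, the gene for tissue factor, the starter of coagulation, rose from 21.7 ± 8.39 to 52.1 ± 10.7 CPM, with a log2 fold change of 1.26 (SE 0.26, adjusted p = 0.0113). Its adjusted p was 0.0746 without hyperoxia 2 and 0.0619 with the level of Y-linked genes as a covariate. The other 4 that rose were Gadd45b, Igfbp3, Tgfb2 and Nuak2, with log2 fold changes of 1.12, 0.99, 0.85 and 0.61. Nuak2 was just past the threshold (adjusted p = 0.0498). It was not called with DESeq2 size factors, with library size only, or without any 1 library other than room air 3, and Igfbp3 was not called without room air 1. The TEAD motif was present before the start of 2 of the 10 genes of this list with a promoter in the table (20%), Axl and Crim1, neither of which was called.

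**Figure D3:**
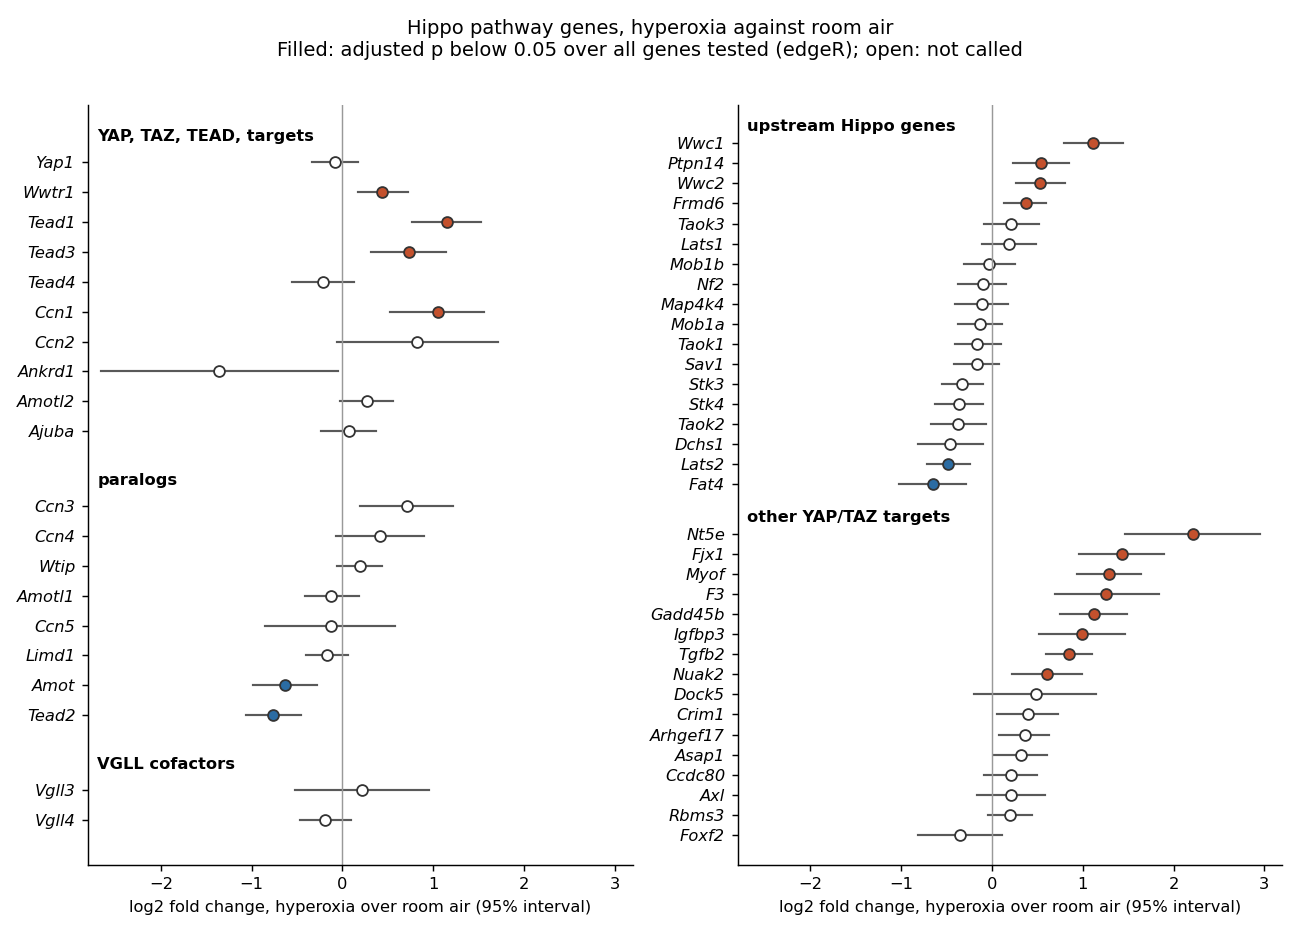
Log2 fold change of hyperoxia over room air (horizontal axes) with 95% intervals for the 10 genes, their paralogs and cofactors (left), and for upstream Hippo genes and other targets (right). Filled points have an adjusted p below 0.05, red for higher and blue for lower. Among other targets, 8 of 16 points are red and none is blue, while upstream genes fall on both sides of 0.

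Markers of other lung cells moved with some of these genes. All 8 alveolar type 1 markers were called higher in hyperoxia, as were 6.77% of all genes tested. The median log2 fold change of these markers was 1.26, and each of them was detected in every library. Their summed level was 1918, 2238 and 2648 CPM in room air and 4820, 6168 and 4865 CPM in hyperoxia. The 6 libraries stood in the same order for this sum and for Tead1, room air 1 lowest and hyperoxia 2 highest. The part of alveolar type 1 cells in the levels of Tead1, Tead3, Wwtr1, Ccn1, Wwc1 and the other targets was not tested. Endothelial markers ran the other way in their median, -0.28, but 0 of 8 were called (2 at an unadjusted p below 0.05, both lower). Of all 17072 genes tested, 4298 stood below that p, 1993 of them lower. The endothelial sums overlapped, at 11147 to 15767 CPM in room air and 9245 to 12832 CPM in hyperoxia, with hyperoxia 2 the lowest library.

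Smooth muscle and pericyte markers summed to 263 to 364 CPM in room air and to 242 to 523 CPM in hyperoxia, with hyperoxia 2 highest, and 0 of 8 were called (0 at an unadjusted p below 0.05). Fibroblast markers summed to 351 to 520 CPM and 405 to 666 CPM, again with hyperoxia 2 highest, and 0 of 6 were called (1 at an unadjusted p below 0.05, lower). Hyperoxia 2 was also the library in which Ccn2 stood apart, and the part of these cells in Ccn1 and Ccn2 was not tested. Of 4 mesothelial markers, Msln was higher (log2 fold change 1.76, adjusted p = 9.62e-05), while Upk3b (-0.95, adjusted p = 0.117), Wt1 (0.04, adjusted p = 0.98) and Lrrn4 (-1.66, adjusted p = 0.121) were not called. The median of the 4 was -0.46, and 3 stood at an unadjusted p below 0.05, of which 2 were lower. Their summed level was 67, 49 and 57 CPM in room air and 123, 174 and 139 CPM in hyperoxia, without overlap. Msln alone stood at 115.7, 165.4 and 129.9 CPM in hyperoxia. Alveolar type 2 markers summed to 11833 to 18702 and 13256 to 16276 CPM with 0 of 6 called (2 at an unadjusted p below 0.05). Leukocyte markers summed to 152 to 265 and 167 to 231 CPM with 1 of 6 called, Cd68 (1 at an unadjusted p below 0.05), and platelet markers to 19 to 41 and 26 to 43 CPM with 0 of 4 called (1 at an unadjusted p below 0.05). Over all genes tested, 11.2% were called, and 4298 of 17072 stood at an unadjusted p below 0.05, 1993 of them lower.

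Immediate early genes, which warm digestion of tissue can switch on, moved with Ccn1 too. Of 10 such genes, 5 were higher, 0 were lower and 5 were not called (6.77% higher and 4.41% lower over all genes tested). The median log2 fold change of the 10 was 0.57. The transcription factor gene Egr2 rose from 29.6 ± 8.49 to 68.2 ± 7.58 CPM, with a log2 fold change of 1.21 (adjusted p = 0.00238). Zfp36, Egr1 and Fos rose by 0.89, 0.78 and 0.77 on the log2 scale (adjusted p = 0.0049, 0.0291 and 0.0182). When 1 library was left out, the adjusted p of Egr1 reached 0.108 and that of Fos 0.061. Their summed level was 7300, 11033 and 8393 CPM in room air and 11991, 12682 and 12632 CPM in hyperoxia, so the groups did not overlap. Room air 1, the lowest library for Ccn1, was also the lowest in this sum, and the part of handling in Ccn1 was not tested. The 5 calls became 2 to 5 when 1 library was left out, 2 of them without room air 1 or without hyperoxia 3 and 3 without room air 3, hyperoxia 1 or hyperoxia 2. Over all genes tested, the 1909 calls became 1057 to 1844.

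**Figure D4:**
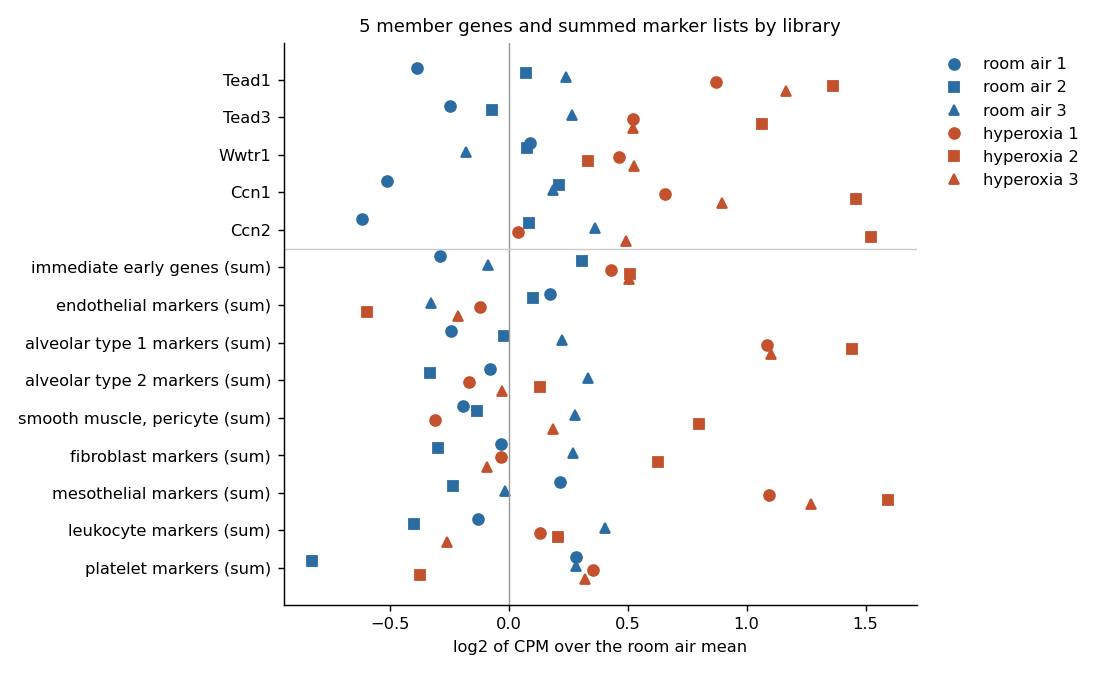
Level of 5 of the genes (top) and summed level of marker lists (bottom) in each library, as log2 of CPM over the room air mean (horizontal axis). Points are libraries, coloured by group and shaped by replicate. Alveolar type 1 markers separate the groups as Tead1 does, and so do the sums of mesothelial markers and of immediate early genes. The mesothelial sum is mostly Msln, while Upk3b and Lrrn4 had negative log2 fold changes (-0.95 and -1.66). The sums of endothelial, alveolar type 2, smooth muscle, fibroblast, leukocyte and platelet markers overlap between groups.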

How the data were processed

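RNA-seq of 6 libraries was used, 3 a group, with groups and replicate numbers from the sample titles. The authors deposited raw counts per Ensembl gene ID. The submitters' processing notes name the build GRCm39 and the tools DESeq2, featureCounts, HISAT2 2.2.1 and Subread 2.0.6. The sources used here do not give the annotation release, the strand setting or how multimapping reads were counted. Gene symbols matched 51948 of 56941 IDs, 16762 of them among genes tested. No library duplicated another of its group: chi-square values of their counts were 14.1 times the degrees of freedom or more.

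Genes were filtered with filterByExpr (minimum count 10, minimum total 15), scaled by TMM (factors 0.975 to 1.04) and compared with the robust quasi-likelihood test of edgeR 4.0.16 in R 4.3.3, without covariates. The Benjamini-Hochberg adjustment ran over all 17072 genes tested, with calls below 0.05. Every adjusted p comes from this test where no other is named. The common biological coefficient of variation was 0.229. Standard errors and 95% intervals were derived from the F statistic and are approximate. CPM are counts scaled after TMM, and RPKM divide them by exonic length in GENCODE M21, which is on GRCm38. Promoters are from RefSeq.

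The 10 genes and all lists were chosen with earlier results of these data known. From the other lists the called genes with the largest change were named, up to 4 a list, or the 2 most abundant where none was called. The other called genes, the uncalled genes named and the single markers were chosen after their values were seen. Alternatives were DESeq2 size factors, library size only, no filter, 1 CPM in 3 libraries, the tests of DESeq2 1.42.0 and limma-voom (limma 3.58.1), thresholds of 0.01 and 0.1, each library left out, hyperoxia 2 and room air 3 left out together, a replicate block, and the level of 4 Y-linked genes as a covariate. TEAD shares of counts and the TEAD sum, both not divided by length, were added after seeing the data.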

Additional observations from a re-analysis of the deposited data

How the results depend on the processing

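The count of 4 higher genes among the 10 was 3 or 4 with the other scalings, filters, tests and covariates, 3 with hyperoxia 2 and room air 3 both omitted, 1 at an adjusted p below 0.01, and 1 to 3 when 1 library was left out. The genes were not always the same. Wwtr1 was not called with DESeq2 size factors, Tead3 with library size only, and Ccn1 with hyperoxia 2 and room air 3 omitted. With the Y-linked covariate, Ccn2 was called and Wwtr1 was not. The count of lower genes was 0 under all 17 alternatives. With replicate number as a block it was 3 higher, Wwtr1 losing its call (adjusted p = 0.111). The numbers did not pair the samples: correlations of deviations were 0.112, -0.0389 and -0.0899 for the 3 shared numbers, and not every library correlated best with its own number. The replicate block called 4 of the 18 upstream genes, 1 of them lower, and 7 of the other targets. The 6 upstream calls were 1 at an adjusted p below 0.01 and 1 to 5 when 1 library was left out. The 4 higher upstream genes were 1 at 0.01, 2 with hyperoxia 2 and room air 3 left out together, and 1 to 3 when 1 library was left out. The 2 lower ones were 5 with the DESeq2 test, 5 at 0.1, 4 with the Y-linked covariate, 0 at 0.01 and 0 to 3 when 1 library was left out. The 8 other targets were 5 at 0.01 and 6 to 8 when 1 library was left out. Calls over all genes were 1909 in the fit described above and 1057 to 1844 when 1 library was left out. They were 2691 with the DESeq2 test, 2552 with the Y-linked covariate and 1395 with the replicate block. Where calls were fewer at 0.01 the threshold itself is stricter, and where they were more at 0.1 it is looser. For the other changes the cause was not tested.

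Directions turned for uncalled values. The log2 fold change of Ajuba was -0.14 with hyperoxia 2 and room air 3 left out together and -0.07 to 0.16 when 1 library was left out, and that of Vgll3 -0.0027 to 0.55. The Tead4 share differed by -3.62 percentage points on counts not divided by length and by -1.8 to 1.54 when 1 library was left out. Ankrd1 gave a value in 14 of 15 alternatives with a fit, because it does not reach 1 CPM. Its depth was 9 to 38 counts per library, and its 95% interval ran from -2.66 to -0.05.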
